A study of Homo sapiens with 6 samples.

Results

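Dysbindin, encoded by DTNBP1, and 9 genes whose products sort cargo with it to lysosome-related organelles were followed in U87MG glioma cells and their brain-passaged derivatives. The 10 genes were DTNBP1, BLOC1S1, BLOC1S2, SNAPIN, HPS1, HPS3, HPS4, HPS5, HPS6 and AP3B1, taken from 19775 genes on the array by their gene symbol. They were represented by 22 of the 54675 probe sets, each a group of short oligonucleotides that reports 1 transcript region. For each gene the probe set with the highest mean over the 6 arrays gave its value, and the others served as a check. All 10 genes passed the filter on low signal, a mean log2 signal of at least 4.73, as did 14513 genes in all. DTNBP1 was chosen by its low log2 signal in the invasive derivative, so its differences there are described without a test. The other members were picked for their known membership in the same complexes.

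Lysosome-related organelles are specialised compartments, such as melanosomes and platelet dense granules, that share parts of their biogenesis with lysosomes. Cargo for them is sorted on endosomes by the adaptor AP-3 and by the complexes BLOC-1, BLOC-2 and BLOC-3, and loss of these complexes causes Hermansky-Pudlak syndrome, with albinism and bleeding. Cells without melanosomes, glial cells included, use the same complexes for traffic between endosomes and lysosomes, and BLOC-1 subunits have also been studied in neurons for synaptic vesicle proteins.

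The cultured human cells formed 3 groups, each with 2 arrays of total RNA. U87MGR is a highly invasive derivative and U87MGL a non-invasive derivative, each obtained by 4 rounds in which U87MG cells were injected into the left striatum of BALB/c nu/nu nude mice aged 6 weeks, recovered from the brain and cultured again. U87MG is the parental glioblastoma line, bought from a cell bank. All were kept in medium with serum, and no step that removes mouse cells other than red blood cells is described. The replicates of U87MGR were the sublines R2 and R3 and those of U87MGL were L2 and L3. Nothing in the labels says whether sublines of equal number share a host. The p-values therefore measure the spread between these samples, which in the derivatives includes any difference between sublines.

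Array medians ran from 5.29 to 5.35 (log2). Over the tested genes the difference between the replicates had an SD of 0.34 for U87MGR, 0.28 for U87MGL and 0.45 for U87MG. Spiked-in control RNA split the arrays along other lines than the groups. U87MGR replicate 1 lay with both U87MGL arrays, U87MGR replicate 2 lay with U87MG replicate 1, and U87MG replicate 2 stood alone. The labels do not say what these sets stand for. Distances were 0.682 to 1.05 within these sets and 4.12 to 6.40 between them. The GAPDH probe sets at the 3′ end read above those at the 5′ end by 0.24 on U87MGR replicate 2 and by 0.03 to 0.07 elsewhere. For actin the same difference was -0.01 on U87MG replicate 1 and 0.22 to 0.39 elsewhere. A link of these readings to the calls below was not tested. Of 10 glioma and astroglial markers, VIM and CD44 were bright on all 6 arrays (14.3 to 14.5 and 13.0 to 13.3). The astrocyte markers GFAP (5.21 to 5.45) and ALDH1L1 (5.05 to 5.51) stayed close to the array medians. S100B (3.18 to 3.51) and AQP4 (3.24 to 3.83) did not pass the filter. The others were NES (7.27 to 9.61), SOX9 (6.21 to 8.93), SLC1A3 (8.69 to 10.35) and CHI3L1 (8.58 to 13.35). Of 8 melanosome cargo genes, taken as melanocyte markers, 5 passed the filter, and TYRP1, MLANA and GPR143 did not. Those that passed were TYR (5.44 to 5.92), PMEL (5.50 to 5.78), OCA2 (5.70 to 6.65), SLC45A2 (5.08 to 5.62) and ATP7A (6.09 to 7.32). The mean over this list was 5.16 to 5.18 in U87MGR, 5.00 to 5.11 in U87MGL and 5.00 to 5.18 in U87MG. Of 8 microglia markers 4 passed the filter, and PTPRC, CX3CR1, P2RY12 and TYROBP did not. Those that passed were CSF1R (7.31 to 7.85), AIF1 (5.65 to 6.59), TMEM119 (4.57 to 7.07) and ITGAM (4.47 to 4.94). The mean log2 signal over the microglia list was 4.80 to 4.95 in U87MGR, 4.82 to 5.01 in U87MGL and 5.10 to 5.16 in U87MG.

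DTNBP1, the dysbindin subunit of BLOC-1, had low signal on both arrays of the invasive derivative and stood well apart there from all 4 other arrays. Its brightest probe set, 223445_at, read log2 signals of 5.23 and 5.22 in U87MGR replicates 1 and 2, 7.42 and 7.35 in U87MGL, and 7.36 and 7.63 in U87MG. The group means were 5.23 ± 0.01 in U87MGR, 7.39 ± 0.05 in U87MGL and 7.49 ± 0.19 in U87MG (SD, n = 2 each). DTNBP1 was thus 4.47-fold lower in U87MGR than in U87MGL (log2 difference -2.16) and 4.81-fold lower than in U87MG (-2.27). Because these differences led to the choice of the gene, they carry no p-value. The arrays read RNA of whole cultures, so fewer cells with the transcript and less transcript per cell cannot be told apart. U87MGL and U87MG overlapped, with a log2 difference of -0.11 (SE 0.16, 95% interval -0.49 to 0.27, limma adjusted p = 0.73). In the U87MGR arrays the signal of this probe set lay at the percentiles 48.8 and 47.9 of all probe sets on the array, just under the array median, against 72.3 to 76.0 in the other arrays. Within the array sets formed by the spike-in controls, U87MGR replicate 1 differed by -2.15 from the mean of the U87MGL arrays. U87MGR replicate 2 differed by -2.14 from U87MG replicate 1, which is 1 array against 1. These are the values by which the gene was chosen, so they add no separate support.

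The other DTNBP1 probe sets did not all read the same change. Probe set 223446_s_at, designed on the same database entry as the brightest, gave 4.72 and 4.03 in U87MGR, 7.01 and 6.87 in U87MGL, and 6.70 and 6.92 in U87MG. Its U87MGR signals were again far below all others, by -2.56 against U87MGL and -2.43 against U87MG. Probe set 223763_at, designed on another entry, gave 5.07 and 4.93 in U87MGR, 5.31 and 5.25 in U87MGL, and 5.33 and 4.84 in U87MG. It differed by -0.28 and -0.09, and its U87MGR and U87MG arrays overlapped. That probe set was dim everywhere, between the percentiles 41.5 and 50.3 of its arrays. With the mean of all 3 probe sets taken as the gene's value, the differences of DTNBP1 were -1.67 from U87MGL and -1.59 from U87MG.

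**Figure D1:**
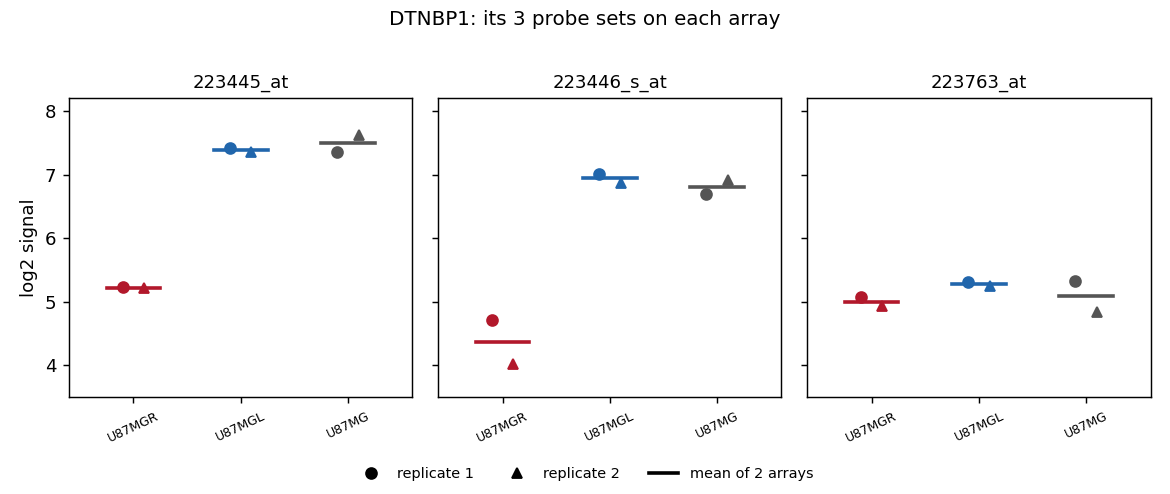
Log2 signal of the 3 DTNBP1 probe sets on each of the 6 arrays, by group (circles replicate 1, triangles replicate 2, lines the mean of 2 arrays). Probe sets 223445_at and 223446_s_at lie between 4.03 and 5.23 in U87MGR and between 6.70 and 7.63 in the other groups, while 223763_at lies between 4.84 and 5.33 on all arrays.

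The start of the gene is shown because DTNBP1 is the member whose transcript was low. The window runs from 250 bases before to 50 bases after 1 of 2 annotated starts of DTNBP1 on the minus strand of chromosome 6 (GRCh38.p14, chr6:15663009-15663308, RefSeq), with each CG pair in capitals.
DTNBP1: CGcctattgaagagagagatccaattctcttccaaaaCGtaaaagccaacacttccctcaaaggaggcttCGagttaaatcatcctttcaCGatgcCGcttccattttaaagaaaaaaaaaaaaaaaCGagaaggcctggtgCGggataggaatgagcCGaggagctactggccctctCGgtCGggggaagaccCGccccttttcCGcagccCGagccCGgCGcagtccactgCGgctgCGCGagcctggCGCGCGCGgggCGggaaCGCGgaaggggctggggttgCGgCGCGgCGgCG
It holds 30 CG pairs, against a median of 14 over 35116 such windows, and 22.4% of the windows hold as many or more. No methylation or binding was measured in these samples.

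None of the other members was called in U87MGR against either group. Between U87MGR and U87MGL, limma called none of the 9 other members at an adjusted p under 0.05, beside 0.158% of all genes tested, and 1 of the 9 at an unadjusted p under 0.05, beside 8.85%. Their arrays did not overlap in 5 of the 9, beside 46.6% of all genes. Their median log2 difference was 0.04, with a range of -0.16 to 0.64, and that of all genes was 0.00. Between U87MGR and U87MG, limma again called none of the 9, beside 3.3% of all genes, and 2 at an unadjusted p under 0.05, beside 20.8%. The arrays did not overlap in 7 of the 9, beside 48.4%, and the median was -0.13 (range -0.44 to 0.82), against -0.01 over all genes. Between U87MGL and U87MG, where DTNBP1 was tested too, limma called none of the 10, beside 4.82%, and 4 at an unadjusted p under 0.05, beside 23.3%. The arrays did not overlap in 7 of the 10, beside 56.4%, with a median of -0.14 (range -0.77 to 0.43), against -0.02 over all genes. Each of these shares of non-overlapping members rests on few genes, and in the comparison of U87MGR with U87MGL it was close to the background. The comparisons share arrays in pairs, so their counts are not independent.

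**Figure D2:**
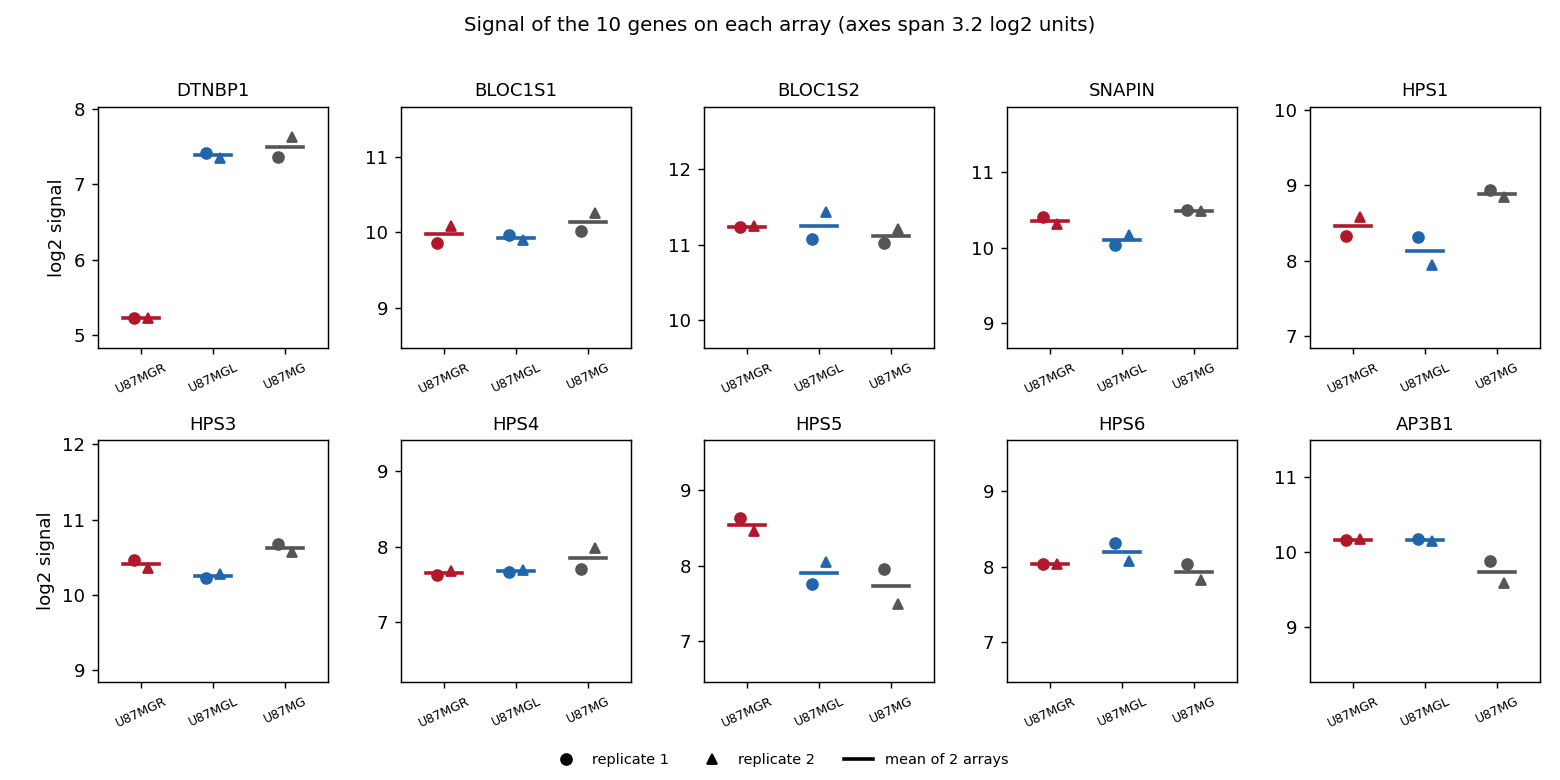
Log2 signal of the 10 genes on each array, by group (circles replicate 1, triangles replicate 2, lines the mean of 2 arrays); every panel spans 3.2 log2 units around its own centre, so distances compare between panels and levels do not. DTNBP1 averages 5.23 in U87MGR, against 7.39 in U87MGL and 7.49 in U87MG, and HPS5 is highest in U87MGR.

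Differences of the BLOC-1 subunits BLOC1S1, BLOC1S2 and SNAPIN in the invasive cells ran from -0.17 to 0.25, and none was called by limma. BLOC1S1, a small coiled-coil subunit that is also part of the lysosome-positioning complex BORC, gave 9.86 and 10.08 in U87MGR, 9.96 and 9.89 in U87MGL, and 10.02 and 10.26 in U87MG. Its arrays overlapped between U87MGR and each of the other groups, with differences of 0.04 (95% interval -0.36 to 0.45) and -0.17 (-0.57 to 0.23). BLOC1S2, likewise shared by BLOC-1 and BORC, gave 11.23 and 11.24 in U87MGR, 11.07 and 11.43 in U87MGL, and 11.02 and 11.21 in U87MG. The U87MGR arrays lay between those of U87MGL, at a difference of -0.02 (-0.44 to 0.41), and just above those of U87MG, at 0.12 (-0.31 to 0.54). SNAPIN, the subunit found as a binding partner of the SNARE protein SNAP25, gave 10.40 and 10.31 in U87MGR, 10.03 and 10.17 in U87MGL, and 10.50 and 10.48 in U87MG. U87MGL was the lowest group for SNAPIN, with U87MGR at 0.25 above it (-0.10 to 0.61) and U87MGL at -0.39 from U87MG (SE 0.15, limma adjusted p = 0.186). The 95% intervals are not adjusted for the number of genes.

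The BLOC-1 subunits outside the 10 genes were BLOC1S3, BLOC1S4, BLOC1S5 and BLOC1S6, of which all but BLOC1S5 were tested. None was called in any comparison by limma. The shares of all genes called were 0.158% in U87MGR against U87MGL, 3.3% in U87MGR against U87MG and 4.82% in U87MGL against U87MG. BLOC1S4, which encodes cappuccino, had the largest difference, averaging 8.24 in U87MGR, 8.88 in U87MGL and 9.07 in U87MG. It lay at -0.83 in U87MGR against U87MG (SE 0.27, limma adjusted p = 0.149) and at -0.64 against U87MGL (SE 0.27, limma adjusted p = 0.574). With the 3 spike-in sets as a block, which leaves out U87MG replicate 2, its difference from U87MG was -1.42 (limma adjusted p = 0.0464), and leaving out 1 array at a time put it between -1.20 and -0.45. BLOC1S6, the pallidin subunit, lay at -0.12 against U87MGL and -0.24 against U87MG in U87MGR, and BLOC1S3 at 0.10 and -0.01.

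By the brightest probe sets HPS5 had the largest differences of U87MGR among the BLOC-2 members, and none was called. BLOC-2, built of HPS3, HPS5 and HPS6, guides the endosomal tubules that carry cargo to maturing melanosomes. HPS5 gave 8.63 and 8.46 in U87MGR, 7.76 and 8.05 in U87MGL, and 7.96 and 7.49 in U87MG. Both U87MGR arrays lay above the other 4, and the U87MGL and U87MG arrays overlapped. Over all genes, U87MGR did not overlap with U87MGL in 46.6% and with U87MG in 48.4%. The difference was 0.64 from U87MGL (1.56-fold, SE 0.21, 95% interval 0.14 to 1.14, limma adjusted p = 0.434) and 0.82 from U87MG (1.77-fold, SE 0.21, 95% interval 0.32 to 1.32, limma adjusted p = 0.0843). Neither passed the threshold. Without U87MG replicate 1 the difference from U87MG was 1.06, and over the 6 arrays left out in turn it ran from 0.59 to 1.06. Within the spike-in sets it was 0.73 from U87MGL and 0.50 from U87MG. The gene had 1 probe set, so no other measure of it was at hand.

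HPS3 gave 10.46 and 10.36 in U87MGR, 10.23 and 10.28 in U87MGL, and 10.67 and 10.57 in U87MG. The 3 groups did not overlap, with U87MG highest and U87MGL lowest, yet the differences of U87MGR were small, at 0.15 from U87MGL (95% interval -0.20 to 0.51) and -0.21 from U87MG (-0.56 to 0.14). Its dimmer probe sets 238539_at and 231121_at gave -0.43 and -0.48 for U87MGR against U87MGL, the opposite sign to the brightest, and -1.02 and 0.43 against U87MG. On 238539_at U87MGR replicate 2 was lowest at 6.64, with 7.66 in replicate 1. HPS6 gave 8.04 and 8.03 in U87MGR, 8.32 and 8.07 in U87MGL, and 8.04 and 7.83 in U87MG. Its differences were -0.16 (-0.55 to 0.24) from U87MGL and 0.10 (-0.29 to 0.50) from U87MG, and -0.26 and -0.43 on its dim probe set 230371_at.

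The BLOC-3 subunits HPS1 and HPS4 together activate the GTPases RAB32 and RAB38, which direct cargo to melanosomes. HPS1 gave 8.33 and 8.58 in U87MGR, 8.31 and 7.94 in U87MGL, and 8.94 and 8.84 in U87MG. Both derivatives lay below the parental line, U87MGL by -0.77 (1.71-fold, SE 0.19, 95% interval -1.22 to -0.33, limma adjusted p = 0.066) and U87MGR by -0.44 (SE 0.19, limma adjusted p = 0.243), and neither difference passed. This probe set, 203308_x_at, carries the suffix that marks oligonucleotides shared with other sequences. Of the 5 HPS1 probe sets 4 lay lower in U87MGL than in U87MG, by -0.18 to -0.77. The remaining probe set, 210112_at, went the other way, with 8.31 and 8.72 in U87MGR, 8.01 and 8.16 in U87MGL, and 7.26 and 8.10 in U87MG. With the mean of all its probe sets the HPS1 difference of U87MGR from U87MG was 0.02.

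HPS4 gave 7.63 and 7.68 in U87MGR, 7.66 and 7.69 in U87MGL, and 7.71 and 7.99 in U87MG. It moved little, at -0.02 from U87MGL (95% interval -0.40 to 0.37) and -0.19 from U87MG (-0.58 to 0.19), and all differences on its 3 probe sets lay between -0.19 and 0.12. Of 12 tested Rab GTPases and effectors that work with BLOC-3 or move lysosome-related organelles, limma called none in U87MGR against either group. At an unadjusted p under 0.05, 1 was up and 1 down against U87MGL, beside 8.85% of all genes in either direction, and 0 were up and 4 down against U87MG, beside 20.8%. In U87MGL against U87MG it called SYTL2, a RAB27 effector, higher, beside 3.02% of all genes called higher (mean 10.94 in U87MGL and 9.55 in U87MG, log2 difference 1.39, SE 0.25, limma adjusted p = 0.03). It called RAB29, a lysosomal GTPase, lower, beside 1.8% of all genes called lower (8.37 and 9.53, -1.16, SE 0.19, limma adjusted p = 0.0242).

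AP3B1 encodes the large beta subunit of AP-3 and is the gene of the form of Hermansky-Pudlak syndrome that adds immune deficiency. It gave 10.16 and 10.17 in U87MGR, 10.17 and 10.15 in U87MGL, and 9.88 and 9.59 in U87MG. Both derivatives lay above the parental line without overlap, each by 0.43 (1.35-fold, SE 0.16, 95% interval 0.05 to 0.82), with limma adjusted p = 0.197 for U87MGR and 0.177 for U87MGL. Between U87MGR and U87MGL the difference was 0.00 (-0.39 to 0.39). The dimmer AP3B1 probe set 203141_s_at gave 7.76 and 7.15 in U87MGR, 8.06 and 7.72 in U87MGL, and 7.84 and 7.73 in U87MG, and put U87MGR at -0.33 from U87MG. None of 4 other AP-3 subunits tested was called by limma in any comparison, also at an unadjusted p under 0.05. At that level stood 8.85% of all genes in U87MGR against U87MGL, 20.8% in U87MGR against U87MG and 23.3% in U87MGL against U87MG. The largest difference among the 4 subunits was that of AP3M1, the mu subunit, at -0.28 in U87MGR against U87MGL (SE 0.24), which was 0.05 without U87MGR replicate 2.

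**Figure D3:**
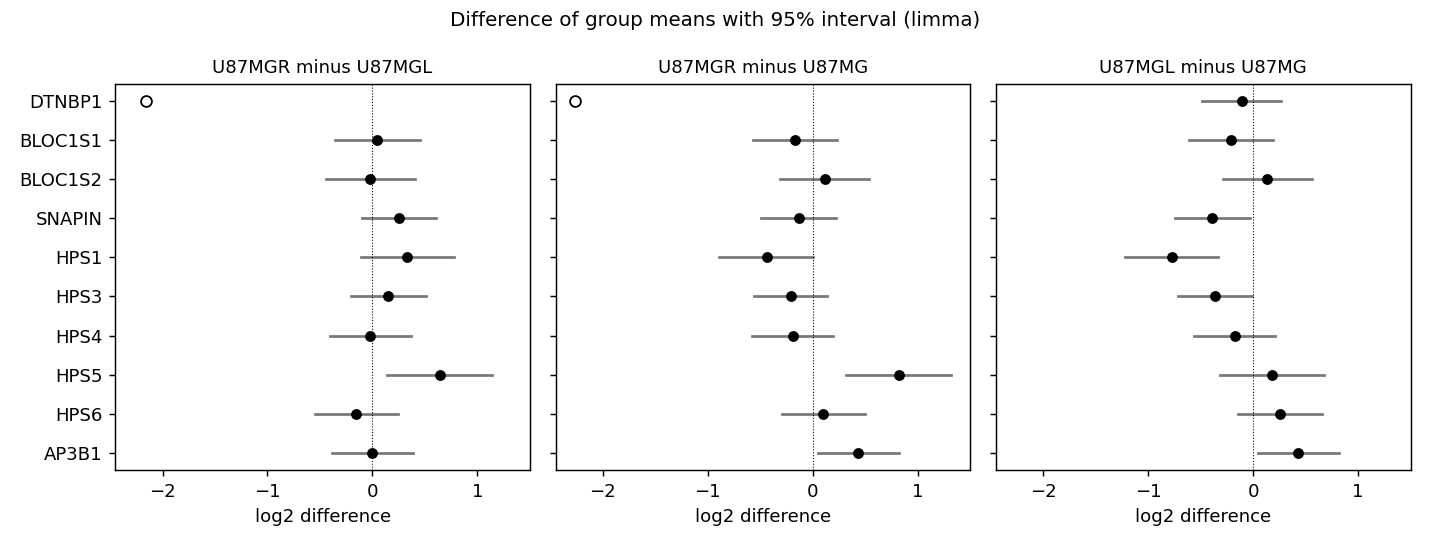
Log2 difference of group means for the 10 genes in the 3 comparisons, with unadjusted 95% intervals from limma (filled points). DTNBP1 has open points without an interval at -2.16 and -2.27, where it was chosen for the difference; every other point lies between -0.77 and 0.82.

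Few genes that work next to these complexes were called. Of all genes, limma called 0.158% in U87MGR against U87MGL, 3.3% in U87MGR against U87MG and 4.82% in U87MGL against U87MG. None of 12 tested subunits of HOPS and CORVET and related tethers, which dock endosomes and lysosomes, was called by limma in any comparison. LYST, mutated in Chediak-Higashi syndrome, had the largest difference, -1.02 in U87MGL against U87MG (limma adjusted p = 0.11). Without single arrays the LYST difference ran from -1.50 to -0.54. None of 9 genes of BORC and lysosome positioning was called, with BORCS7 at -0.85 in U87MGL against U87MG (limma adjusted p = 0.0996). None of 15 genes for endosomal SNAREs and the SNARE-recycling proteins NAPA and NSF was called. VTI1A lay at 0.75 in the same comparison (limma adjusted p = 0.069), and at 0.59 to 0.91 without single arrays. None of 15 reported dysbindin partners outside BLOC-1 was called. PRKDC lay at 0.90 in the same comparison (limma adjusted p = 0.112), and at 0.47 to 1.33 without single arrays. Against U87MGL, U87MGR showed no member of these 4 lists at an unadjusted p under 0.05, beside 8.85% of all genes in either direction. Against U87MG, it had 0 higher and 1 lower tether, 2 and 2 genes of lysosome positioning, 1 and 2 SNAREs, and 1 and 3 partners at that level, beside 20.8% of all genes in either direction.

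Of 11 subunits of the adaptors AP-1 and AP-2, which serve the trans-Golgi network and the plasma membrane, limma called AP1M1 higher in U87MGR than in U87MG, beside 1.86% of all genes called higher (11.16 and 10.15, log2 difference 1.01, SE 0.18, limma adjusted p = 0.0364). AP1M1 averaged 10.97 in U87MGL, at 0.81 from U87MG (SE 0.18, limma adjusted p = 0.0506). U87MGR differed from U87MGL by 0.19 (SE 0.18, limma adjusted p = 0.798). With 2 or 3 spike-in sets as a block the difference of U87MGR from U87MG was not called. The call was kept without U87MG replicate 1 and lost without any other single array, with differences of 0.85 to 1.16 and adjusted p-values up to 0.201.

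Of 27 tested genes for lysosomal membrane proteins and hydrolases, 5 were called lower in U87MGL than in U87MG and none higher, beside 1.80% of all genes called lower, with a list median of -0.32 against -0.02 over all genes. These were the protease CTSD (9.22 in U87MGL and 10.56 in U87MG, log2 difference -1.34, SE 0.22, limma adjusted p = 0.0254), the sterol carrier NPC2 (-1.05), the calcium channel MCOLN1 (-1.04), the ceramidase ASAH1 (-0.91) and the glucosidase GAA (-0.88), of which ASAH1 and GAA were added after their values were seen. Against U87MG, U87MGR had no call in this list and 7 of 27 genes lower at an unadjusted p under 0.05, beside 20.8% of all genes in either direction, with a median of -0.17. Against U87MGL it had none called, and at that level 3 genes lay above and 1 below, beside 8.85% of all genes in either direction, with CTSD at 0.75 and NPC2 at 0.56. Whether the derivatives differ in their change from U87MG is what the comparison of U87MGR with U87MGL tests, and no gene of the list passed there.

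All calls of U87MGL against U87MG, these lysosomal and Rab genes included, were lost when the spike-in sets entered the fit as a block. Both U87MGL arrays lay in 1 set without any U87MG array, so this fit compared the groups only through single U87MGR arrays, at lower precision. The loss of calls therefore does not tell whether the differences go with the sets. With 2 sets limma called 0 of all genes (1236 at an unadjusted p under 0.05), with 3 sets also 0 (2226), and no set held arrays of both groups, so there is no value within a set. With 2 sets the differences of CTSD, NPC2 and MCOLN1 were -0.90, -1.02 and -0.77. Without single arrays the calls of CTSD, NPC2, MCOLN1 and RAB29 were kept only without U87MG replicate 1, and that of SYTL2 only without a U87MG array. The lowest and highest differences were -1.52 and -1.15 for CTSD, -1.26 and -0.85 for NPC2, -1.19 and -0.89 for MCOLN1, -1.33 and -0.98 for RAB29, and 1.15 and 1.63 for SYTL2.

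None of 5 tested melanosome cargo genes was called, with the copper transporter ATP7A at 0.83 in U87MGR against U87MG (limma adjusted p = 0.0883). None of the tested microglia, endothelium or oligodendrocyte markers was called. TMEM119 lay at -1.77 in U87MGR against U87MG (limma adjusted p = 0.102). CLDN5 lay at -0.60 and MBP at -0.66 in U87MGL against U87MG (limma adjusted p = 0.41 and 0.0956). Without single arrays CLDN5 ran from -1.30 to 0.10 and MBP from -0.87 to -0.45. Of the neuron list MAP2 was called lower in U87MGL than in U87MG (-1.74, limma adjusted p = 0.0226), beside 1.80% of all genes called lower there. Of 8 tested glioma and astroglial markers 3 were called in each derivative against U87MG, beside 3.3% of all genes in U87MGR and 4.82% in U87MGL. SOX9 was called higher (2.16 in U87MGR and 2.30 in U87MGL against U87MG), and CHI3L1 (-3.05 and -4.13) and SLC1A3 (-1.40 and -1.07) lower. All genes called higher made up 1.86% in U87MGR and 3.02% in U87MGL, and those called lower 1.44% and 1.80%. In U87MGR these 3 calls were lost without 2 of the 6 arrays each, and with 2 spike-in sets as a block SOX9 alone stayed called (limma adjusted p = 0.0443). In U87MGL the CHI3L1 call was kept with each of the 6 arrays left out, that of SOX9 with 4, MAP2 with 2 and SLC1A3 with 1. No marker of these lists was called between U87MGR and U87MGL, beside 0.158% of all genes. By limma at an unadjusted p under 0.05, 2 of 6 neuron markers and 1 of 8 glioma and astroglial markers were higher in U87MGR. These were SYT1 (0.75), MAP2 (0.92) and CHI3L1 (1.08). The other marker lists had none, beside 8.85% of all genes in either direction. DTNBP1 also differed between these groups, and the part of the markers in its level was not tested.

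None of the tested genes around DTNBP1 on chromosome 6 was called lower in U87MGR. Among the 10 tested genes on each side in GRCh38.p14 gene order, the differences of U87MGR from U87MGL ran from -0.86 to 0.20. Their median was -0.16, against 0.00 over all genes, and limma called none, beside 0.158% of all genes. The differences of U87MGR from U87MG ran from -0.54 to 1.19 with a median of 0.13, against -0.01 over all genes. Of these 20 genes, 2 were called higher, beside 1.86% of all genes, and none lower, beside 1.44%. The differences of U87MGL from U87MG had a median of 0.24, against -0.02 over all genes, with 3 of 20 below 0. The nearest on one side were JARID2, a partner of the polycomb repressive complex (7.59 and 6.91 in U87MGR, 7.65 and 7.61 in U87MGL, 7.47 and 7.43 in U87MG), and its antisense gene JARID2-AS1. Their differences from U87MGL were -0.38 and 0.09, and those from U87MG -0.20 and 0.14. The nearest on the other side were MYLIP, a ubiquitin ligase for the LDL receptor (6.76 and 6.70 in U87MGR, 7.01 and 6.82 in U87MGL, 6.61 and 6.71 in U87MG), and GMPR, a GMP reductase. MYLIP differed by -0.18 from U87MGL and 0.08 from U87MG.

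The genes called higher in U87MGR than in U87MG were GMPR and CAP2, an actin-regulating protein. GMPR gave 6.00 and 6.29 in U87MGR, 6.45 and 6.25 in U87MGL, and 4.92 and 4.99 in U87MG. Its log2 difference from U87MG was 1.19 in U87MGR (limma adjusted p = 0.0243) and 1.39 in U87MGL (limma adjusted p = 0.0135), where it was the neighbour called, beside 3.02% of all genes called higher. CAP2 gave 8.45 and 8.35 in U87MGR, 8.24 and 8.16 in U87MGL, and 7.63 and 7.48 in U87MG. Its difference from U87MG was 0.85 in U87MGR (limma adjusted p = 0.0383) and 0.65 in U87MGL (limma adjusted p = 0.0613). Without single arrays the CAP2 difference of U87MGL ran from 0.57 to 0.72. The U87MGR call of GMPR was lost without either U87MGR array (1.33 and 1.04), its U87MGL call without either U87MGL array (1.30 and 1.49), and the U87MGR call of CAP2 without every array but U87MG replicate 1 (0.77 to 0.92). With 2 spike-in sets as a block the limma adjusted p-values in U87MGR were 0.093 for GMPR and 0.152 for CAP2, and that of GMPR in U87MGL was 0.277. ATXN1, with the lowest difference from U87MGL of these neighbours at -0.86, was singled out after its values were seen. It gave 6.51 and 6.32 in U87MGR, 7.25 and 7.29 in U87MGL, and 6.82 and 7.0 in U87MG (limma adjusted p = 0.149 against U87MGL and 0.147 against U87MG).

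**Figure D4:**
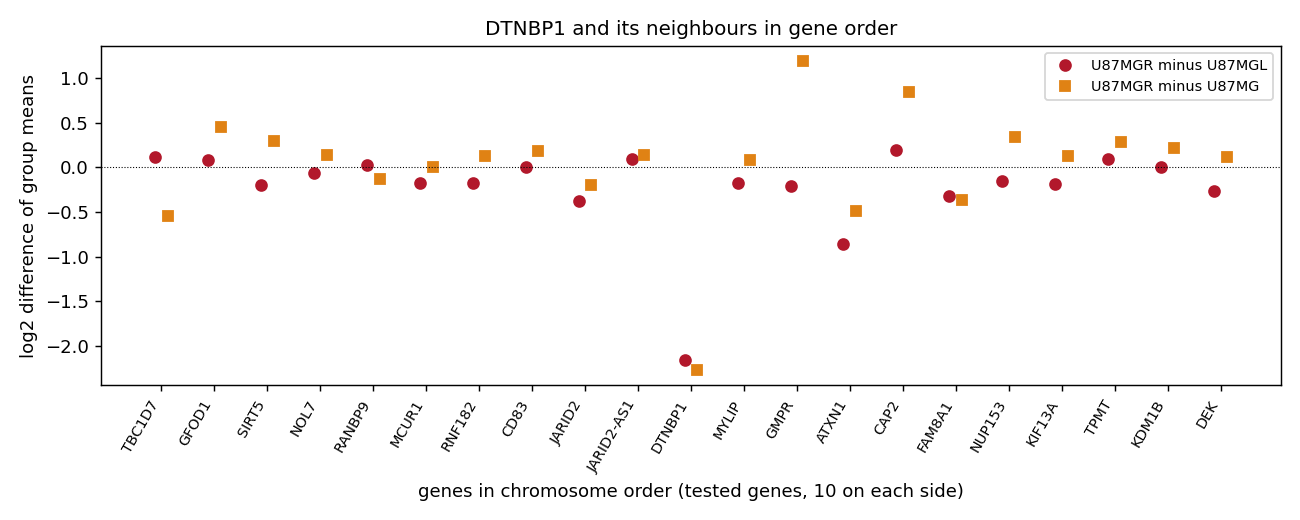
Log2 difference of U87MGR from U87MGL (circles) and from U87MG (squares) for DTNBP1 and the 10 tested genes on each side of it, in chromosome order with equal spacing. DTNBP1 lies at -2.16 and -2.27, while its neighbours lie between -0.86 and 1.19.

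The 6 genes whose profile over the 6 arrays was most like that of DTNBP1 lay on other chromosomes. Likeness was the root mean square difference between log2 profiles after each gene's own mean was removed, and was 0.40 to 0.47 for these genes, with Pearson correlations of 0.92 to 0.99 over 6 arrays that fall into 3 groups. They were PAQR5, a membrane progestin receptor, DUSP10, a MAP kinase phosphatase, IFITM2, an interferon-induced membrane protein, PYCARD, the inflammasome adaptor, ADA, adenosine deaminase, and NCK2, an SH2 and SH3 adaptor. DUSP10 gave 7.26 and 7.34 in U87MGR, 8.48 and 8.57 in U87MGL, and 8.73 and 8.82 in U87MG. PYCARD gave 4.56 and 4.03 in U87MGR, 7.13 and 7.43 in U87MGL, and 6.30 and 6.56 in U87MG. All 6 were chosen for low signal in U87MGR and were below U87MGL by -1.07 to -2.99 and below U87MG by -1.42 to -2.14. None belongs to the complexes described here.

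Promoter windows from RefSeq (GRCh38.p14) were found for 8 of the 10 genes, all but HPS1 and AP3B1. They were searched for TCACGTGA, the palindromic core of the element that the lysosomal gene regulators TFEB and TFE3 bind, and for its centre CACGTG, which every TCACGTGA contains. Both read the same on both strands. TCACGTGA was in 3 of the 8 genes, BLOC1S1, HPS3 and HPS5, beside 1.18% of 27305 genes with a window, and CACGTG was in the same 3 genes, beside 8.77%. The stretches are shown with TCACGTGA in capitals, because they are the matches found among the members, and the DTNBP1 window printed above holds none.
BLOC1S1 site 1 (plus strand, chr12:55716017-55716044): gttcccaaccTCACGTGAcacagcggtc
BLOC1S1 site 2 (plus strand, chr12:55716033-55716060): gacacagcggTCACGTGAcatggccccg
HPS3 (plus strand, chr3:149129597-149129624): cggctggcgtTCACGTGAcccggcgtca
HPS5 (minus strand, chr11:18322239-18322266): gcgtgactcgTCACGTGAtgaggaagtg
Counted from the annotated start, the motif begins at -19 and -3 in BLOC1S1, at -31 in HPS3 and at -116 in HPS5. For BLOC1S1, HPS3 and HPS5 the log2 differences of U87MGR were 0.04, 0.15 and 0.64 from U87MGL and -0.17, -0.21 and 0.82 from U87MG, none of them called. A match is a description of the letters in the window and was not tested against binding.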

How the data were processed

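The authors deposited log2 signals of 54675 probe sets on 6 arrays. The values were tested on the file (2.38 to 14.6, none at or below 0, near-equal array medians). The authors' normalization, scanner settings and background correction are not given in the sources used here, and the values were used as deposited. No detection calls were at hand, so dim signals have no stated floor.

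Probe sets were named from the platform table: 41097 carried 1 symbol, 1801 several and 11777 none, and symbols were updated by gene number to GRCh38.p14. For 19775 genes the brightest probe set with 1 symbol gave the gene's value. Genes whose mean reached the 40th percentile of probe set means (4.73) were tested, 14513 in all. One limma model (version 3.58.1, R 4.3.3) with a mean per group was fitted to all 6 arrays, with 3 residual and 4.05 prior degrees of freedom. Calls used a two-sided Benjamini-Hochberg adjusted p under 0.05 over all genes tested. Fold changes and intervals are on the log2 scale. The number of arrays limits the precision, with a median SE of 0.189. The fit was tested on simulated data.

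The members and lists were chosen with earlier results of these data known. The text names every member, the called genes of 15 other lists (up to 3 in each direction and comparison, or the largest difference in a list without a call), the nearest and any called neighbours of DTNBP1, and the 6 genes nearest to its profile. The sets of arrays came from clustering 21 spiked-in control probe sets. Alternatives covered the filter, normalization, probe set choice, samples, variance model, single arrays, replicate numbers and spike-in sets.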

Additional observations from a re-analysis of the deposited data

How the results depend on the processing

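The low DTNBP1 signal in U87MGR kept its direction under every alternative run. These runs reuse the values by which the gene was chosen, so they show how the size varies and are no separate support. The DTNBP1 difference from U87MGL was -2.12 after quantile normalization and -1.67 with the mean of all probe sets. Its difference from U87MG was -1.59 with that mean. Single arrays left out gave -2.19 to -2.13 from U87MGL and -2.40 to -2.13 from U87MG. In U87MGL against U87MG it was 0.07 with the mean of probe sets, 0.01 with 3 spike-in sets as a block and -0.24 to 0.03 without single arrays.

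Genes called between U87MGR and U87MGL, 23 in all, numbered 40 without the filter, 15 with the mean of probe sets, 4 with 2 spike-in sets as a block (564 at an unadjusted p under 0.05), 0 with 3 (1169), and 3 to 34 without single arrays. Against U87MG the 479 calls of U87MGR became 233 with only the 4 arrays compared, 11 and 231 with 2 and 3 spike-in sets, and 1 to 877 without single arrays. The 699 calls of U87MGL became 215, 0 and 0 (1236 and 2226 unadjusted), and 37 to 1550. Members called in U87MGR against U87MG numbered 0 to 1 without single arrays, HPS5 without U87MG replicate 1.

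Small differences changed sign. For U87MGR against U87MGL, BLOC1S2 was 0.06 and HPS4 0.04 after quantile normalization, HPS3 -0.25 and HPS4 0.01 with the mean of probe sets, and BLOC1S1 -0.07 and AP3M1 0.05 with either spike-in block. Against U87MG, with the mean of probe sets HPS1 was 0.02 and HPS6 -0.17, and with 3 spike-in sets BLOC1S1 was 0.07 and JARID2-AS1 -0.16. For U87MGL against U87MG, BLOC1S1 was 0.02 with 2 sets and 0.14 with 3, where HPS4 was 0.02, HPS5 -0.23 and CLDN5 0.23. Without single arrays U87MGR against U87MGL ran from -0.07 to 0.16 for BLOC1S1, -0.20 to 0.16 for BLOC1S2, -0.04 to 0.01 for HPS4, -0.62 to 0.05 for AP3M1 and -0.04 to 0.23 for JARID2-AS1. U87MGR against U87MG ran from -0.54 to 0.14 for JARID2 and -0.11 to 0.39 for JARID2-AS1, and U87MGL against U87MG from -0.05 to 0.31 for BLOC1S2, -0.05 to 0.42 for HPS5 and -1.30 to 0.10 for CLDN5. The cause was not tested.

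Deviations of replicates of equal number correlated at -0.09 to 0.11, under the level of 0.1 in all but 1 pair of groups, so the numbers were not taken as pairs. Whether equal numbers share a host is not given. With the replicate block limma called 28 genes between U87MGR and U87MGL, 363 between U87MGR and U87MG, 602 between U87MGL and U87MG, and no member. Groups of 2 arrays limit what could be called, and without detection calls the dim 223763_at and U87MGR signals of DTNBP1 have no known floor.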
